A study of Mus musculus with 12 samples.

Results

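The genes described here are 10 genes of brown and beige fat: Ucp1, Cidea, Cox8b, Cox7a1, Ppargc1a, Tbx1, Dio2, Elovl3, Prdm16 and Ppargc1b. They were taken as every array probe annotated with one of these symbols, which gave 13 of 45281 probes, and each probe was read on its own. Arrays were made from liver and from gonadal adipose tissue (GWAT), a white fat depot, of male FVB mice that were wild type or carried a caveolin-1 knockout. The knockout removes Cav1, the gene of the main coat protein of caveolae, the small pits of the plasma membrane. Mice were 12 weeks old for liver and 8 weeks old for GWAT. Both tissues were collected at 3 PM, the livers under ketamine and xylazine. Each tissue and genotype had 3 Illumina bead arrays (12 in all), and the labels do not say whether these were separate animals, so the spread behind each p-value may be partly or wholly technical. The labels give no detail of how the knockout was made.

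Brown adipocytes and the beige adipocytes that arise in white depots burn fat to make heat. Ucp1 lets protons leak across the inner mitochondrial membrane, and the program around it supplies mitochondria and fuel. Ppargc1a and Ppargc1b are coactivators that raise mitochondrial gene transcription, Prdm16 is a transcriptional regulator that directs cells to the brown fate, and Tbx1 is a T-box factor used as a marker of beige cells. Dio2 makes active thyroid hormone inside the cell, Elovl3 elongates fatty acids, Cidea is a lipid droplet protein, and Cox8b and Cox7a1 are subunits of cytochrome c oxidase. Cox8b and Cox7a1 are also the forms of their subunits used in heart and skeletal muscle, so muscle markers are given beside them.

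The tissues were normalized apart, so levels are not comparable between them. Between 44.8% and 48.6% of probes on the GWAT arrays lay above background, the level exceeded by 5 in 100 probes of olfactory and related receptor genes on the same array. In liver the share was 33.7% to 36.6%. The knocked-out gene went against the GWAT labels: the Cav1 probe read 112, 108 and 111 on the arrays labelled wild type and 14598, 15114 and 17476 on those labelled knockout. In liver it followed them, at 183 ± 23.8 (SD, n = 3) in wild type and 114 ± 3.60 (SD, n = 3) in knockout, where it was not above background on any array (at least 1.49-fold lower, adjusted p = 0.0271). Every GWAT direction below is that of the labels, and each would turn if the labels were exchanged. Fat markers were present on all 6 GWAT arrays: all 9 adipocyte marker genes with a probe were above background on each, and their summed intensity was 64013 to 68250 on arrays labelled wild type and 62874 to 65922 on those labelled knockout. In GWAT 2 of 10 hepatocyte marker genes reached the test, and albumin (Alb) was above background on 0 of 6 arrays.

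In GWAT, 7 of the 13 probes were tested. Of these 7, 3 rose and 1 fell on the arrays labelled knockout, where Cav1 was high. Cox8b rose 4.03-fold, Ppargc1a and Cidea rose less, and Tbx1 fell. Cox7a1, Ppargc1b and 1 Prdm16 probe were measured on every array and did not pass the test. The defining gene, Ucp1, was above background on 1 of 6 arrays, Elovl3 on 1 of 6, and both Dio2 probes, the other Ppargc1a probe and the other Prdm16 probe on 0 of 6; these 6 probes were not tested. Each of the 7 tested probes was above background on at least 2 of 3 arrays of both labelled genotypes, so none entered the test through 1 group alone. Over all 21301 probes tested in GWAT, 11.2% rose and 11.4% fell (limma with Benjamini-Hochberg adjustment, adjusted p under 0.05), and the members' counts stand beside that background. The number called over all probes was 4799, and leaving out wild-type replicate 2 gave 2806, leaving out knockout replicate 2 gave 2827 and leaving out knockout replicate 3 gave 3130. The labelled groups did not overlap for 4 of the 7 tested members, against 39.3% of all tested probes. The median log2 difference of the tested members was 0.20, against 0.01 over all tested probes.

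**Figure D1:**
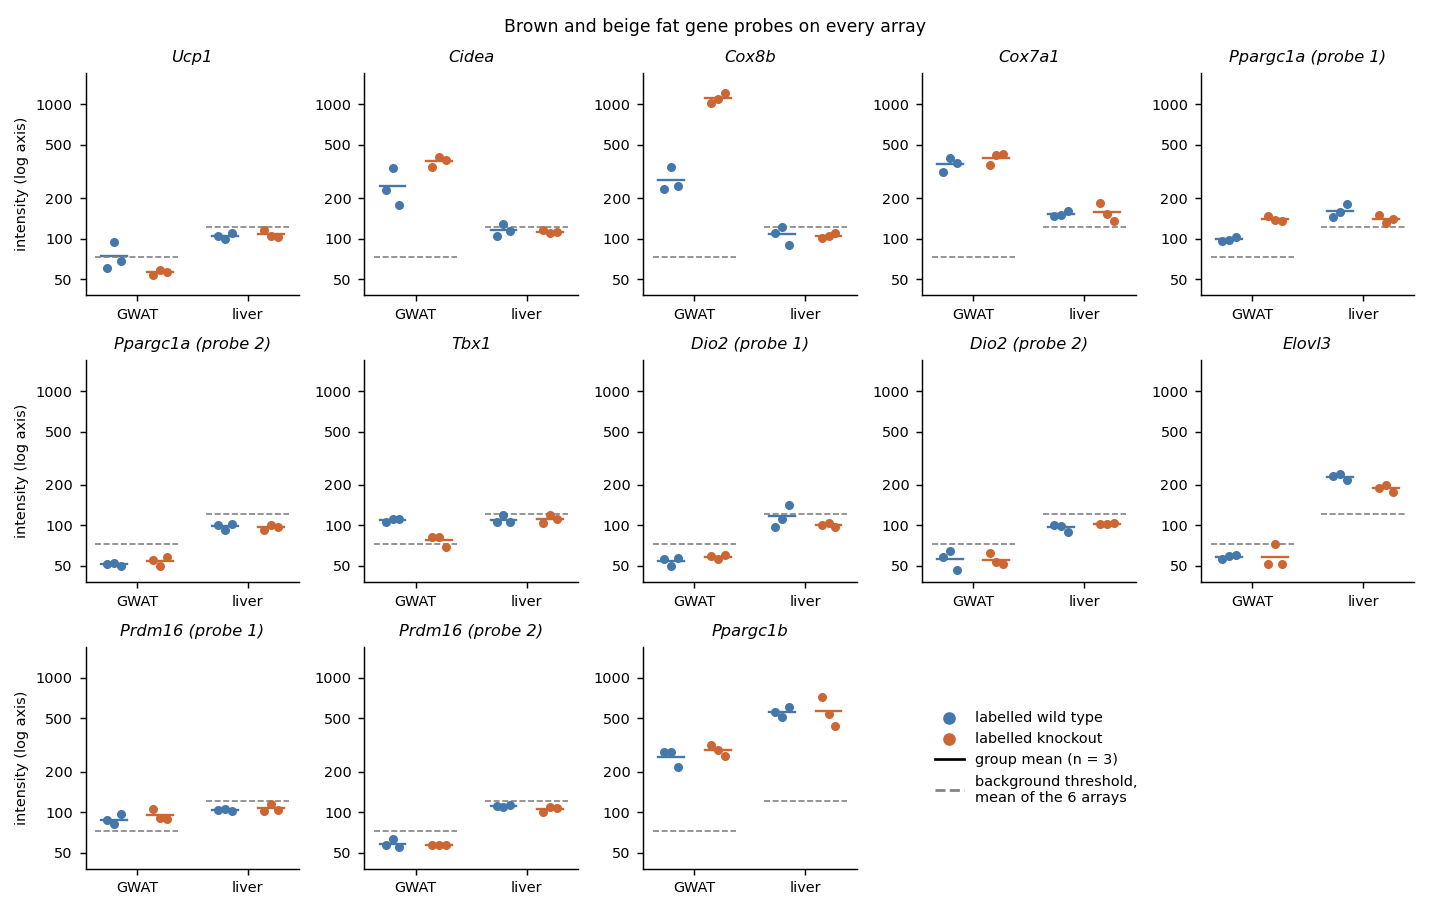
Intensity (log axis) of the 13 probes on every GWAT and liver array, with points for arrays, short lines for group means (n = 3) and dashed lines for the mean background threshold of a tissue. The Cox8b points of the arrays labelled knockout, from 1024 to 1205, lie above those labelled wild type, from 233 to 342, while Ucp1 and Dio2 lie at or below the threshold on nearly every array.

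Among the transcriptional regulators, Ppargc1a rose. One Ppargc1a probe (ILMN_2710139) read 95.6, 96.9 and 103 on the GWAT arrays labelled wild type and 147, 137 and 135 on those labelled knockout. All 3 arrays labelled knockout lay above all 3 labelled wild type. The log2 difference was 0.79 (SE 0.13, limma adjusted p = 0.00191). Its size depended on the background, since it was 0.50 without background correction (adjusted p = 0.00205). The other probe (ILMN_2763524) read 49.9 to 52.6 and 49.6 to 58.3, below background throughout.

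Ppargc1b (ILMN_2771709), the sister coactivator, did not pass. It read 281, 281 and 218 on the arrays labelled wild type and 318, 291 and 263 on those labelled knockout, and the groups overlapped. The log2 difference was 0.20 (95% interval -0.11 to 0.51, adjusted p = 0.350). Prdm16 (ILMN_2513922) read 87.0, 81.8 and 96.3 against 106, 90.8 and 88.6, just above background, and the groups overlapped. Its log2 difference was 0.19 (95% interval -0.20 to 0.58, adjusted p = 0.491). Its other probe (ILMN_2663314) read 55.5 to 63.0, below background.

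Tbx1 (ILMN_1252399) was the member that fell. It read 106, 112 and 111 on the GWAT arrays labelled wild type and 81.9, 81.4 and 68.7 on those labelled knockout, where it was above background on 2 of 3. The groups did not overlap. Its log2 difference was -0.98 (SE 0.17, adjusted p = 0.00242) on the background-corrected scale and -0.51 without correction (adjusted p = 0.00292), so the size of the fall is uncertain at this low signal. With knockout replicate 1 as the only array labelled knockout, a setting chosen after seeing the data, the fall was -0.80 and did not pass (adjusted p = 0.0627).

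The uncoupling protein itself was barely detected. Ucp1 (ILMN_2994373) read 60.7, 94.1 and 67.9 on the GWAT arrays labelled wild type and 53.8, 58.4 and 56.6 on those labelled knockout, and only the 94.1 of wild-type replicate 2 was above background. The groups did not overlap, but with 1 array above background no test was made. Among the tested members, that array had the highest value of its group for Cidea, Cox8b, Cox7a1 and Tbx1. It did not for Ppargc1a, Ppargc1b and Prdm16. Dio2 read 50.3 to 60.1 on one probe (ILMN_2766037) and 46.2 to 64.6 on the other (ILMN_2771979), below background on all 6 arrays. Elovl3 (ILMN_2682207) read 51.7 to 72.3, with knockout replicate 2 alone above background. For these 3 genes a difference between genotypes was not detectable at this signal.

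**Figure D2:**
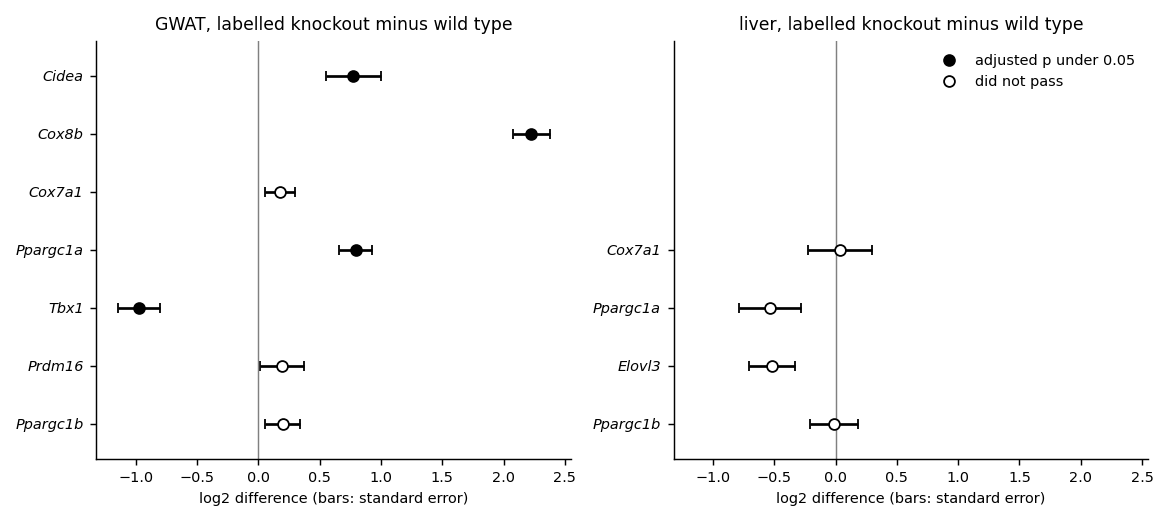
The log2 difference of each tested member, arrays labelled knockout minus wild type, in GWAT and in liver, with standard errors as bars (n = 3 per group) and filled points where the adjusted p was under 0.05. Cox8b lies farthest from 0 in GWAT at 2.23, and no member of the liver panel is filled.

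Cox8b (ILMN_2727520) showed the clearest difference of the set. It read 233, 342 and 248 on the GWAT arrays labelled wild type and 1024, 1089.8 and 1205 on those labelled knockout, a ratio of means of 4.03. The lowest array labelled knockout lay far above the highest labelled wild type. The log2 difference was 2.23 (SE 0.15, adjusted p = 5.25e-06), and 23 of the 21301 tested probes had a higher one. It was 2.01 to 2.42 over all the settings tried other than turned labels, with adjusted p-values of 6.74e-07 to 0.00103.

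Cox7a1 (ILMN_1240857), on the same chromosome and likewise a muscle and brown fat form, did not pass the test. It read 313, 400.2 and 364 on the arrays labelled wild type and 355, 416 and 428 on those labelled knockout, and the groups overlapped. It differed by 0.18 on the log2 scale (95% interval -0.09 to 0.45, adjusted p = 0.338), so its interval lay wholly below that of Cox8b, 1.90 to 2.55. The difference between these 2 probes was not itself tested.

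The 250 bases before the RefSeq start of Cox8b, Cox7a1 and Ppargc1a are shown because Cox8b and Ppargc1a kept their rise under every setting tried with the labels as given and Cox7a1 is the paired muscle and brown fat subunit that did not pass. They come from RefSeq on build GRCm38.p6, 5′ to 3′ on the gene's strand: Cox8b at chr7:140900447-140900696 (minus), Cox7a1 at chr7:30183921-30184170 (plus) and Ppargc1a at chr5:51567726-51567975 (minus). Capitals mark a match, on either strand, to AGGTCA (the core that nuclear receptors bind), TCAAGGTCA (an estrogen-related receptor site, which contains that core), TGACGTCA (the cAMP response element), CAGCTG (an E-box of the kind muscle factors bind) or the MEF2 core (CTA and TAG with 4 bases between).
Cox8b: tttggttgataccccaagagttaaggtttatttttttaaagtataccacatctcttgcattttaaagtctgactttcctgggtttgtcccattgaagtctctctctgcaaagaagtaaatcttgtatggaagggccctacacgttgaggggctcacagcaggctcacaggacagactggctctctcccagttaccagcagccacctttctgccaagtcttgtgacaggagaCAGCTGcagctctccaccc
Cox7a1: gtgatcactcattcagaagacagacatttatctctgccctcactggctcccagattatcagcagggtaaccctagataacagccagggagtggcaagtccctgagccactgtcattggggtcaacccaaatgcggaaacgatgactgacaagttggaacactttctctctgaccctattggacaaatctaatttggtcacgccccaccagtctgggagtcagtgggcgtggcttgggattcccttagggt
Ppargc1a: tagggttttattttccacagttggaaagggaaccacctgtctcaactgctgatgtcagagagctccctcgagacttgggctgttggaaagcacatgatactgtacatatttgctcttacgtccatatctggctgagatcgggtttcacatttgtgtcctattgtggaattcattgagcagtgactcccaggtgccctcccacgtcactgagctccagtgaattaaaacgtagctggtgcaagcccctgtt
The Cox8b window held 1 match, to CAGCTG, starting 19 bases before the start, and the windows of Cox7a1 and Ppargc1a held none. CAGCTG occurs in 13% of 32851 such windows. The table held 8 windows of 7 members. Among these, AGGTCA occurred only before Ucp1 (14% of all windows) and TGACGTCA only before Dio2 (1.55% of all windows), while TCAAGGTCA (0.387% of all windows) and the MEF2 core (3.2%) occurred in none. A match describes the letters of this window and says nothing of binding.

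Cidea (ILMN_1215446), the lipid droplet member, rose with less certainty. It read 228, 336 and 177 on the GWAT arrays labelled wild type and 341, 403 and 384 on those labelled knockout. The groups did not overlap, but wild-type replicate 2 lay only just below the lowest array labelled knockout. The log2 difference was 0.78 (SE 0.22, adjusted p = 0.0285). The call did not survive leaving out wild-type replicate 1 (0.75, adjusted p = 0.0546), wild-type replicate 3 (0.51, adjusted p = 0.0702), knockout replicate 2 (0.72, adjusted p = 0.103) or knockout replicate 3 (0.76, adjusted p = 0.0711). It was also lost with robust eBayes (adjusted p = 0.137) and when the fit ignored the trend of variance with intensity (adjusted p = 0.0710).

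Some muscle transcripts also rose on the GWAT arrays labelled knockout. Of 28 skeletal muscle marker genes, 25 had a probe (52 probes), and 10 genes were tested on 15 probes: 4 probes rose and 0 fell (median log2 0.37, or 0.31 with Mylpf at its bound). The fast troponin Tnnc2 rose by 2.31 (SE 0.16, adjusted p = 5.72e-06), the skeletal actin Acta1 by 1.35 (SE 0.15, adjusted p = 0.000132) and the light chain Myl1 by 0.31 on 1 probe (ILMN_2878542, adjusted p = 0.0478) but not on another (0.37, adjusted p = 0.229). The light chain Mylpf, not above background on any array labelled wild type, rose at least 1.54-fold (adjusted p = 0.0102) on 1 probe, which entered the test through the arrays labelled knockout alone, and read 0.91 on the log2 scale on the other (adjusted p = 0.109). Fast myosins Myh4 and Myh1 were above background on 0 of 6 arrays. Creatine kinase Ckm read 61.4, 60.5 and 58.7 against 91.5, 68.4 and 137, above background on 2 of 3 arrays labelled knockout. The summed intensity of the 52 probes, most of which were at background, was 5913, 6236 and 6280 on arrays labelled wild type and 7300.4, 8082 and 10094 on those labelled knockout. In bulk tissue, fewer cells of a type and less RNA per cell cannot be told apart.

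Cox8b was high on all 3 arrays labelled knockout, as were the muscle markers Acta1 and Tnnc2. Some other muscle markers were high mainly on replicate 3. Of 15 slow and heart muscle marker genes, 5 were tested on 6 probes and 0 passed in either direction (median log2 1.25). Their summed intensity over 22 probes was 1473, 1455 and 1473 on arrays labelled wild type and 1443, 1788 and 3857 on those labelled knockout, so knockout replicate 1 was no higher than wild type. The skeletal muscle sum on that array was 7300, against 5913 to 6280 on arrays labelled wild type. Cox8b read 1024 on knockout replicate 1. On the 3 arrays labelled knockout Cox6a2, the muscle form of another cytochrome oxidase subunit, read 64.8, 81.7 and 246. The myosin light chain Myl3 read 65.4, 115 and 774. Atp2a1, a calcium pump on the skeletal muscle list, read 72.3, 127 and 339. These 3 were chosen after their values were seen. Acta1 and Tnnc2 were high on knockout replicate 1 as well. Acta1 read 1131, 1333 and 1811 against 527 to 623, and Tnnc2 read 539, 467 and 599 against 127 to 169. Mylpf read 83.7, 105 and 155 against 67.2 to 70.3 on 1 probe. Without knockout replicate 3, Cox8b rose by 2.16 (adjusted p = 2.15e-05). With knockout replicate 1 alone against the arrays labelled wild type, chosen after seeing the data and assuming that a lone array varies like the others, Cox8b rose by 2.11 (adjusted p = 0.00103), Ppargc1a by 0.90 (adjusted p = 0.0397) and Cidea read 0.62 (adjusted p = 0.343). Cox7a1 read -0.01 there (adjusted p = 0.982). Acta1, Tnnc2 and Cox8b were all higher on the arrays labelled knockout, as were 11.2% of all probes tested in GWAT. The part of muscle in the Cox8b result was not tested by any of these fits.

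**Figure D3:**
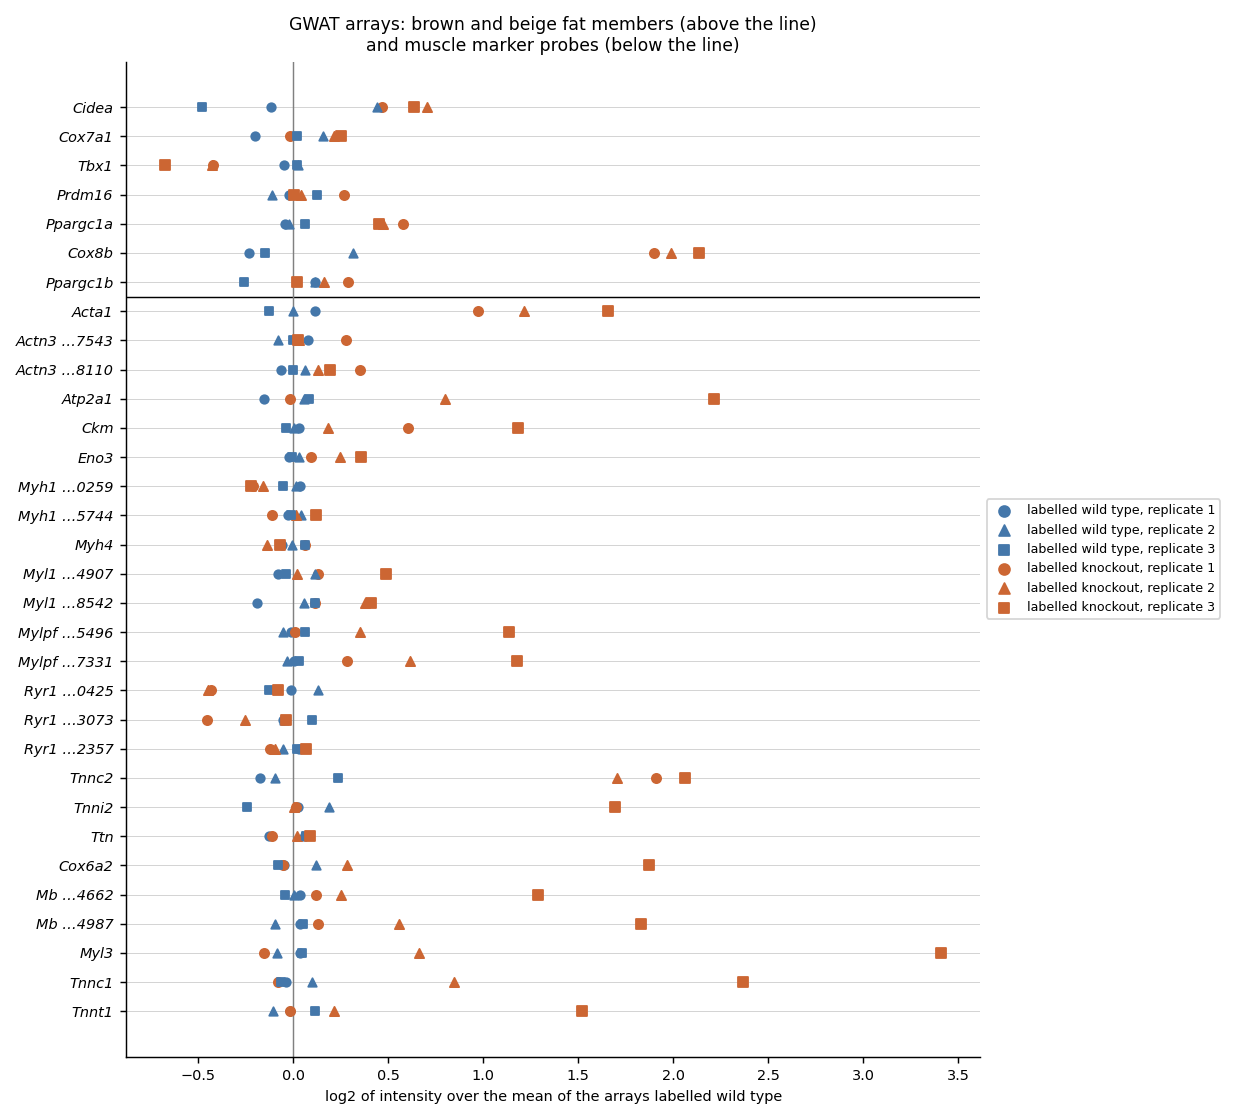
Each row is a probe, and points give the log2 of its intensity on a GWAT array over the mean of the 3 arrays labelled wild type; members tested in GWAT are above the line, and below it stand all tested skeletal, slow and heart muscle probes with Ckm, Myh1 and Myh4. Square points (knockout replicate 3) stand far to the right for Myl3, Tnnc1, Atp2a1 and Mb. The 3 points of the arrays labelled knockout stand close together for Cox8b and for Tnnc2.

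Relatives of the members differed in both directions. Of 24 relatives, 22 had a probe and 16 were tested on 22 probes: 4 probes rose and 6 fell (median log2 -0.06). The largest called differences were a fall of 0.74 for Elovl6 (adjusted p = 0.0399) and a rise of 0.63 for Cox7a2 (adjusted p = 0.0198). Both were picked with their values known. The Elovl6 groups overlapped, at 854 to 1223 on arrays labelled wild type and 432 to 883 on those labelled knockout. Its other probe was below background on every GWAT array. Cox4i1, the common form of oxidase subunit 4, rose by 0.35 (adjusted p = 0.00513). The fatty acid elongase Elovl1 fell by 0.50 (adjusted p = 0.00329), 0.45 (adjusted p = 0.00899) and 0.33 (adjusted p = 0.0195) on 3 probes and read -0.24 (adjusted p = 0.116) on another. Pprc1, the remaining member of the PGC-1 coactivator family, fell by 0.40 (adjusted p = 0.0124), and Cidec, the white fat relative of Cidea, fell by 0.46 (adjusted p = 0.00574). Cox8a and Ucp2, also on the list, were not analysed here.

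Other effectors of heat production and fuel use also moved both ways. Of 29 such genes, 27 had a probe and 23 were tested on 38 probes: 12 probes of 8 genes rose and 6 probes of 6 genes fell (median log2 0.11). The secreted factor Nrg4, which brown adipocytes release, read 485, 446 and 480 on the arrays labelled wild type and 1184, 1247 and 1463 on those labelled knockout. It rose by 1.55 (SE 0.10, adjusted p = 2.72e-06) on that probe and by 1.45 (SE 0.13, adjusted p = 3.91e-05) on its other, with no overlap of the groups on either. Pdk4, a kinase that restrains pyruvate oxidation, fell by 1.32 (adjusted p = 5.72e-06), the fatty acid transporter Slc27a1 fell by 0.96 (adjusted p = 6.92e-06) and the phosphatase Alpl fell by 1.01 (adjusted p = 0.000274).

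Of 32 regulators of the brown fat program, 31 had a probe and 24 were tested on 40 probes: 6 probes rose, 4 fell and 30 did not pass (median log2 0.07). Rxrg, a retinoid receptor, rose by 0.91 (adjusted p = 0.00198). Pparg, the master regulator of fat cells, rose by 0.70 (adjusted p = 0.00987) and 0.52 (adjusted p = 0.0210) on 2 dim probes. These had intensities of 137 to 258 and 268 to 477 over the GWAT arrays. The remaining and brightest Pparg probe, at 4911 to 5971, had a log2 difference of -0.03 (adjusted p = 0.804). Cebpb and Cebpa, factors of fat cell differentiation, fell by 0.62 (adjusted p = 0.000362) and 0.41 (adjusted p = 0.0207). Irf4, which works with Ppargc1a in brown fat and is also an immune cell factor, fell by 1.36 (SE 0.25, adjusted p = 0.00332). Macrophage markers were lower beside it, with 7 of 12 tested probes lower and 0 higher, and summed intensity of 20501 to 23087 against 13215 to 14938; their part in the Irf4 value was not tested. The early brown fat factor Ebf2 read 0.26 (adjusted p = 0.0808) and 0.23 (adjusted p = 0.165), Lhx8 read 0.15 (adjusted p = 0.649), and Zic1, a marker of classical brown fat, was above background on 0 of 6 arrays.

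In the beta-adrenergic chain that switches on thermogenesis, 11 of 14 genes had a probe and 10 were tested on 18 probes, of which 1 rose and 4 fell (median log2 -0.13). Prkaca, the catalytic subunit of protein kinase A, fell by 0.50 (adjusted p = 0.00403) and 0.37 (adjusted p = 0.00871) on its probes. Gprc5b fell by 0.32 (adjusted p = 0.0301) on 1 probe and read -0.11 (adjusted p = 0.507) on the other. In the same chain the kinase Mapk14 fell by 0.25 (adjusted p = 0.0332), and the regulatory subunit Prkar2b rose by 0.58 (adjusted p = 0.0219) on 1 probe and read 0.12 (adjusted p = 0.234) on the other.

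Of 9 beige cell markers, 6 were tested on 7 probes and 1 rose (median log2 -0.12). Cited1, a coregulator used as a beige marker, read 64.7, 58.0 and 62.7 on the arrays labelled wild type, never above background, and 151, 129.9 and 90.0 on those labelled knockout. It rose at least 1.68-fold (adjusted p = 0.000943), having entered the test through the arrays labelled knockout alone. Of 13 white fat genes, 12 were tested on 19 probes, with 7 probes of 4 genes higher and 5 probes of 4 genes lower (median log2 -0.16). The hormone precursor Agt fell by 1.51 (adjusted p = 3.67e-05), the adipokine Retn by 1.08 (adjusted p = 9.66e-05) and the matrix protein Dpt by 0.82 (adjusted p = 9.01e-05). The imprinted gene Mest rose by 0.88 (adjusted p = 0.000562), and Nnat rose by 0.78 (adjusted p = 0.000141) on 1 probe, by 0.49 on another (adjusted p = 0.000816) and read -0.20 on a further tested probe (adjusted p = 0.182). In the adipocyte list 7 of 16 probes rose and 1 fell (median log2 0.15, or 0.14 with a probe below background in 1 group at its bound).

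Some probes of other genes had nearly the same pattern as a called member over the 6 GWAT arrays. Likeness was the distance between log2 values, each taken from its own mean over the arrays labelled wild type, among 18150 probes of other genes. Nearest to Cox8b were both probes of the protease inhibitor gene Serpina1b (distance 0.396 and 0.504), whose copies are near-identical, and the growth factor Bmp3 (0.493). Serpina1b read 550.3 to 656 and 2558 to 3217 on the nearer probe, a log2 difference of 2.28. Nearest to Ppargc1a were Tmem182 (0.113), Zfp386 (0.135) and the cell cycle inhibitor Cdkn2c (0.136). Nearest to Cidea were Mest (0.470), Siglech (0.472) and Tfdp2 (0.497), and nearest to Tbx1 were Snx29 (0.188), Septin3 (0.232) and Arhgap23 (0.236).

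In liver, where caveolin-1 labels and Cav1 ran together, 4 members were measured and 0 passed the test, against 0.0584% of 15412 probes tested (9 probes). Elovl3 was above background on all 6 liver arrays. It read 232, 239 and 219 in wild type and 191, 199 and 177 in knockout, and the groups did not overlap, as for 1 of the 4 tested members and 15.4% of all tested probes. The log2 difference of -0.52 (SE 0.19) had an unadjusted p of 0.0155 in limma's fit and did not pass the adjustment (adjusted p = 0.416). Ppargc1a read 144, 159 and 182 in wild type and 149, 131 and 139 in knockout, with overlap, a log2 difference of -0.54 (95% interval -1.08 to 0.01, adjusted p = 0.509). Ppargc1b read 515 to 603 and 441 to 724, at -0.01 (95% interval -0.43 to 0.40, adjusted p = 0.989), and Cox7a1 read 148 to 159 and 136 to 183, at 0.04 (95% interval -0.52 to 0.60, adjusted p = 0.975). Cox8b, Ucp1, Tbx1 and both Prdm16 probes were above background on 0 of 6 liver arrays, and Cidea and 1 Dio2 probe on 1 of 6. Leaving out single arrays moved the number called over all liver probes between 0 and 299, and 0 members passed in any of these fits.

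The genotype difference of Ppargc1a was not alike in the tissues as labelled. Of the 3 members measured in both, its GWAT difference exceeded its liver difference by 1.33 (SE 0.29, adjusted p = 0.0120), where 6.11% of 14368 probes passed the same test. Cox7a1 (0.14, adjusted p = 0.833) and Ppargc1b (0.21, adjusted p = 0.684) did not pass. In this comparison tissue cannot be told apart from age (8 weeks for GWAT, 12 weeks for liver) or from chip. With the GWAT labels exchanged, as Cav1 reads them, Ppargc1a read -0.79 in GWAT beside -0.54 in liver, and their difference of -0.26 did not pass (adjusted p = 0.630).

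**Figure D4:**
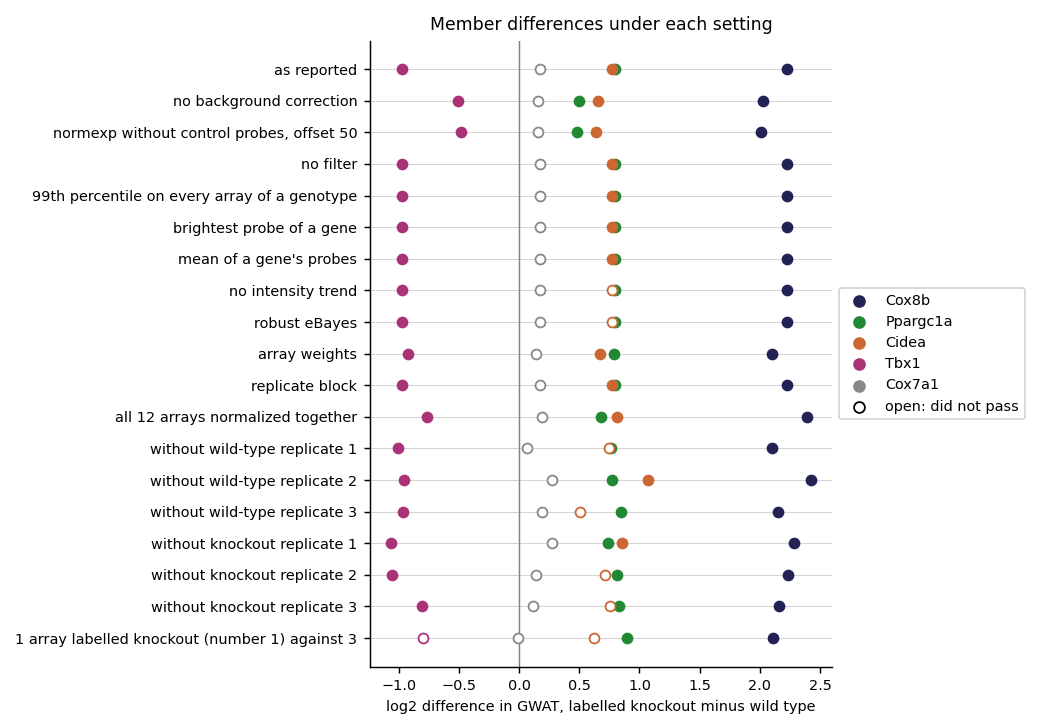
The log2 difference in GWAT (labelled knockout minus wild type) of the 4 members that passed and of Cox7a1 under each setting, filled where the adjusted p was under 0.05 and open where it was not. Cox8b and Ppargc1a are filled in every row, Cidea is open in 7 rows and Tbx1 in 1, and Cox7a1 is open throughout.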

How the data were processed

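RNA was measured on 12 Illumina bead arrays. Values were linear probe intensities deposited by the authors. They were quantile-normalized within each tissue and not background-subtracted, as found from the values (sorted intensities of a tissue differed by at most 1.22%); the normalizing software and the build behind the array are not given in the sources used here. Another 2 tables, each of 1 chip, held 48 columns named only by chip position; these match no sample's labels and were left out, so tissue and chip cannot be told apart. Probes were named from the platform annotation (34885 with 1 symbol, 18 with several, 10378 with none), and 34807 were matched by Entrez identifier to RefSeq symbols of GRCm38.p6.

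Intensities were corrected with limma 3.58.1 (R 4.3.3) normexp on 1526 probes of olfactory, vomeronasal and trace amine receptors as stand-in negative controls, offset 16, and taken to log2. Probes above the 95th percentile of these on at least 3 of 6 arrays of a tissue were tested, each on its own, with two-sided moderated tests (lmFit, then eBayes with trend), Benjamini-Hochberg adjusted over all probes tested; the threshold was 0.05. Tissues were compared by an interaction term fitted to all 12 arrays. For a probe below background on every array of 1 group, the fold is a bound on the deposited, uncorrected intensities, against the lowest signal above background there. The fits were tested on simulated data.

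The members and lists were chosen with earlier results of these data known. Named were all members, Cav1, up to 5 probes past the threshold with the lowest p per list, the 3 probes nearest in pattern, and defining muscle and brown fat genes; any other gene is marked as picked with its values known. Alternatives were other background corrections, filters and ways to join probes, no trend, robust eBayes, array weights, a replicate block, joint normalization, each array left out, and exchanged GWAT labels. The number of arrays limits the precision. Some listed genes are not reported here.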

Additional observations from a re-analysis of the deposited data

Results flagged for a closer look

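The following genes differed between tissues in their genotype difference, by the interaction term of limma's fit over 12 arrays (GWAT difference minus liver difference, log2, by the labels); the value with exchanged GWAT labels follows each. Among members this held for Ppargc1a, at 1.33 (adjusted p = 0.0120) and -0.26 (adjusted p = 0.630). Nrg4 read 1.43 (adjusted p = 0.000258) and 1.57 (adjusted p = 0.00167) on its probes, and -1.67 (adjusted p = 7.49e-05) and -1.34 (adjusted p = 0.00501) with exchanged labels. Agt read -1.99 (adjusted p = 2.17e-05) and 1.03 (adjusted p = 0.00579), Lgals3 read -1.49 (adjusted p = 0.00296) and 1.75 (adjusted p = 0.00119), and Alpl read -0.80 (adjusted p = 0.0487) and 1.22 (adjusted p = 0.00519). With exchanged labels the other differences did not pass: Rxrg read 1.10 (adjusted p = 0.0341) and -0.71 (adjusted p = 0.143), Mrc1 read -0.91 (adjusted p = 0.0178) and 0.26 (adjusted p = 0.484), and Cebpa read -1.12 (adjusted p = 0.0204) and -0.29 (adjusted p = 0.541). Thrsp read 0.92 (adjusted p = 0.00977) and -0.53 (adjusted p = 0.0976), and Cox4i1 read 0.54 (adjusted p = 0.0243) and -0.15 (adjusted p = 0.518). For all of these genes, tissue cannot be told apart from the age of the mice or from chip.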

How the results depend on the processing

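Cox8b (log2 2.01 to 2.42) and Ppargc1a (0.48 to 0.90) kept their direction and their call in GWAT under all 18 alternatives that keep the labels, Tbx1 under 17 and Cidea under 11. Exchanging the GWAT labels turned every sign: Cidea -0.78, Cox7a1 -0.18, Cox8b -2.23, Ppargc1a -0.79, Ppargc1b -0.20, Prdm16 -0.19 and Tbx1 0.98, with 1 member higher and 3 lower; in the difference between tissues it gave Cox7a1 -0.22, Ppargc1a -0.26 and Ppargc1b -0.18, with 0 members higher. With knockout replicate 1 alone against 3 arrays, added after seeing the data, 1014 GWAT probes and 0 falling members passed, and Cox7a1 read -0.0104. Leaving out each array gave 2806 to 4358 GWAT probes, 0 to 299 liver probes and 397 to 1477 probes in the difference between tissues, with 2 to 3 members higher in GWAT. Uncalled values that turned when an array was left out were Cox7a1 (-0.24 to 0.28) and Ppargc1b (-0.24 to 0.19) in liver, with Cox7a1 at -0.01 without wild-type replicate 1, and Ppargc1b at 0.05 without wild-type replicate 3 and 0.01 without knockout replicate 2, and Cox7a1 between tissues (-0.11 to 0.42). The liver count was 15 without a filter, 1 with probes averaged per gene, 0 without an intensity trend (1528 probes had an unadjusted p under 0.05 with the trend) and 706 with array weights. The count between tissues was 1515 without background correction, 565 without a trend and 2733 with array weights, and without a filter 2 members were higher, the second being Cox8b, whose liver signal was below background on 6 of 6 arrays. Array weights gave the highest of these counts; the cause was not tested. Deviations of same-numbered GWAT arrays correlated at -0.01, 0.00 and 0.11, and those of other pairs at -0.14 to 0.14. With 3 arrays per group these values cannot decide whether the numbers pair the samples. With the replicate block 4588 GWAT probes and the same 3 and 1 members passed. Signals near background, as for Tbx1, limit the size of a difference.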
